A study of Triticum aestivum with 12 samples.

Results

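At 14 days after flowering (DAF), 200 genes with well detected transcripts stood furthest above TAM111 in the developing grain of TAM112, and 106 of them were already higher in TAM112 at 5 DAF. TAM111 and TAM112 are hard red winter wheat cultivars that were grown in the field. The 12 libraries came from 4 groups of 3: TAM112 at 14 DAF, TAM111 at 14 DAF, TAM112 at 5 DAF and TAM111 at 5 DAF. Each library was made from the polyadenylated RNA of several grains of 1 inflorescence, and the labels write days after pollination where the study writes DAF. No treatment was applied and no gene was altered, and the labels tell the groups apart by cultivar and day. Plots and harvest dates are not given in the sources used here. Differences in them cannot be told apart from cultivar and day. The 3 libraries of a group are 3 inflorescences, of which the study sequenced those of the highest quality.

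The genes were chosen from their levels at 14 DAF, in CPM, that is, counts scaled by the library total to a common depth. A gene of the wheat annotation had to be over 5 CPM in each TAM112 library and over 3 counts in each TAM111 library, and the end of chromosome 1D was left out. Of 107891 annotated genes, 27182 met these levels. They were ranked by the lowest TAM112 value over the highest TAM111 value, and the first 200 are the members. This ratio was 126 for the gene of highest rank, 7.73 at the median and 5.45 for the last. The last members, TraesCS7A02G031900, TraesCS4D02G072800 and TraesCS6A02G140300, had ratios of 5.47, 5.46 and 5.45, and the first genes left outside, TraesCS3D02G439200, TraesCS5B02G391400 and TraesCS6B02G192800, had 5.42, 5.42 and 5.4. The values at 14 DAF therefore describe how the members were chosen, and no test is given for them. The comparison of the cultivars at 5 DAF used libraries that the choice did not use.

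Bread wheat carries the related subgenomes A, B and D, so most genes exist as homeologs, that is, as matching copies on the corresponding chromosomes. Around 5 DAF the grain is mostly maternal tissue and a young endosperm whose cells are forming and dividing. By 14 DAF the endosperm is filling with starch and storage protein. Genes are given below by the identifiers of the wheat annotation v1.1 and their positions on the IWGSC RefSeq v1.0 assembly. The tables used here give no description for these identifiers, so a gene's role is stated only for the transcription factor that the study names. For the same reason the tissue label was not checked against marker genes. In whole grains, fewer cells of a type and less RNA per cell cannot be told apart.

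The libraries held 31916077 to 40464882 counts. Levels below are CPM after scaling by the trimmed mean of M-values (TMM), and 1 count was worth 0.0231 to 0.0362 CPM. In the TAM111 libraries of 14 DAF the 20 genes with the most reads made up 7.13% to 11.9% of the total, and in the other 9 libraries 3.07% to 4.42%. With library totals alone as the scale, the median log2 fold change of all genes tested at 14 DAF (TAM112 over TAM111) was 0.45 instead of -0.01, and the members' median was 3.8 instead of 3.34. All 200 members passed the filter on low counts, each at least through TAM112 at 14 DAF, where it was chosen to be high. TAM112 replicate 3 was the lowest of its group at 14 DAF for 128 members, and it was so for 47.9% of the genes that met the levels. TAM111 replicate 1 was the highest of its group for 92 members, against 32.3% of those genes. Without TAM112 replicate 3 the rule took only 113 of the same genes, and 7 of the 87 genes lost were among ranks 1 to 100.

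The gene of highest rank was TraesCS1A02G159700, a gene of 1 exon on chromosome 1A, 286915745 to 286916579, plus strand. At 14 DAF it had 38.5, 37.2 and 45.3 CPM in TAM112, against 0.175, 0.254 and 0.386 CPM in TAM111. In the earlier grains it had 39.1, 51.7 and 19.5 CPM in TAM112, against 0.154, 0.148 and 0.113 CPM in TAM111. All 6 TAM112 libraries were thus above 19 CPM and all 6 TAM111 libraries below 0.4 CPM, whichever the stage. The log2 fold change (TAM112 over TAM111) was 7.19 at 14 DAF, where it served the choice. At 5 DAF it was 8.02 ± 0.43 (SE), with an adjusted p of 3.5e-07 in edgeR's quasi-likelihood test.

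The next gene, TraesCS3D02G473000, lies on chromosome 3D, 574821751 to 574827185, minus strand, with 7 exon blocks. It had 39.6, 46.2 and 39.6 CPM in TAM112 at 14 DAF, against 0.316, 0.290 and 0.421 CPM in TAM111. At 5 DAF the values were 62.4, 68.2 and 78.6 CPM in TAM112, against 0.831, 1.39 and 1.35 CPM in TAM111. Its libraries agreed closely within each group, and its log2 fold change at 5 DAF of 5.86 ± 0.23 (SE) had an adjusted p of 5.4e-08 by edgeR. TraesCS7B02G038300 (chromosome 7B, 37359520 to 37361954, plus strand, 5 exon blocks) combined the cultivar difference with a stage difference in both cultivars. It had 88.2, 102 and 70.2 CPM in TAM112 at 14 DAF, against 0.877, 0.580 and 0.491 CPM in TAM111. The 5 DAF libraries had 10.9, 20.6 and 10.4 CPM in TAM112, while the TAM111 libraries held 1, 1 and 3 counts. The 1632 counts of TAM112 against 5 of TAM111 at 5 DAF gave a scaled ratio of 277 with a 95% counting interval of 119 to 856, and the gene was higher in TAM112 by edgeR (adjusted p 5.6e-07).

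TraesCS2B02G034200 (chromosome 2B, 16813613 to 16816571, plus strand) showed a wider gap at 14 DAF than at 5 DAF. It had 62.6, 63.9 and 35.1 CPM in TAM112 at 14 DAF, against 0.246, 0.362 and 0.456 CPM in TAM111. Its levels at 5 DAF were 63.6, 75.7 and 81.3 CPM in TAM112, against 8.18, 9.42 and 11.1 CPM in TAM111. TAM112 stayed at a similar level at both stages, and the low libraries were those of TAM111 at 14 DAF. At 5 DAF the log2 fold change was 2.94 ± 0.25 (SE), adjusted p 1.1e-05 by edgeR. The other 6 of the first 10 were TraesCS6D02G040500, TraesCS2B02G238200, TraesCS4B02G340700, TraesCS4D02G050200, TraesCS1B02G159400 and TraesCS7A02G118800. In each of them the lowest TAM112 library of a stage lay above the highest TAM111 library of that stage. Over the first 10 genes the log2 fold change at 14 DAF ran between 5.17 and 7.23, and at 5 DAF between 2.94 and 8.05.

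**Figure D1:**
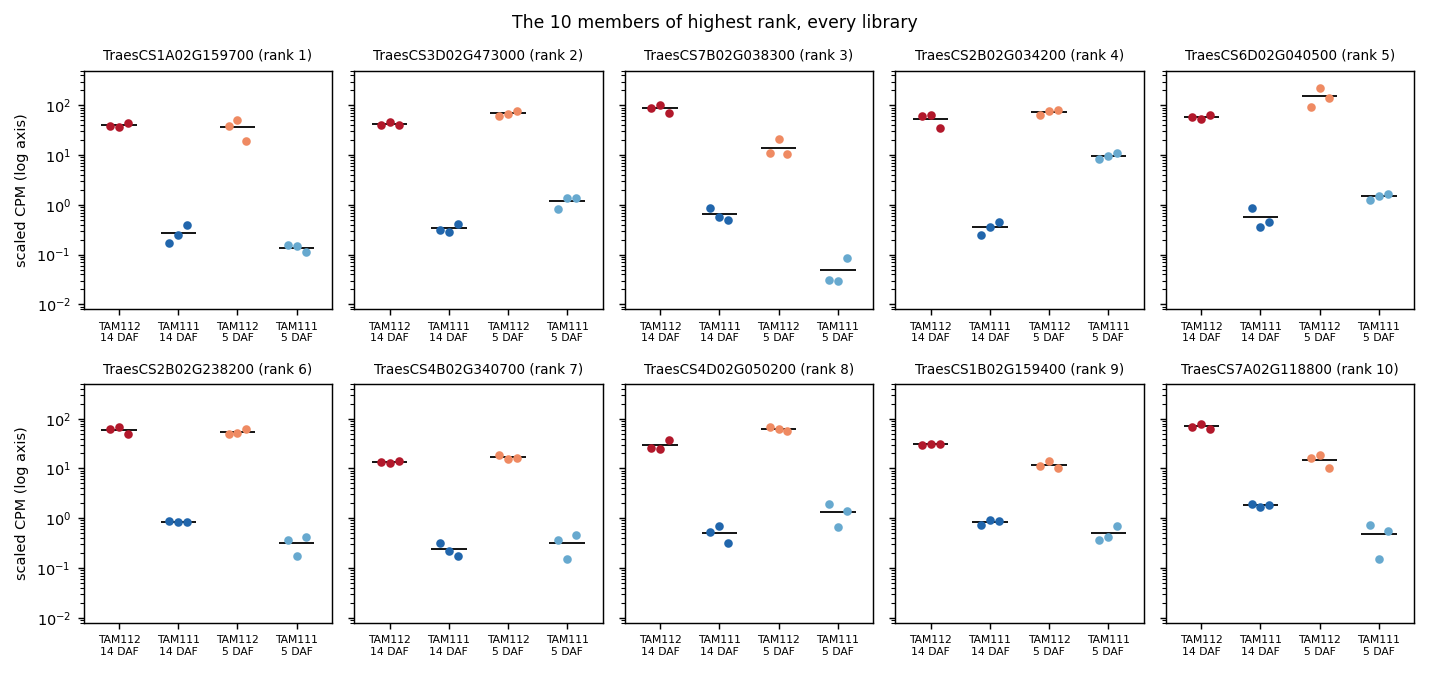
Scaled CPM (log axis) of the 10 members of highest rank in every library. Points are libraries, with replicates 1 to 3 left to right in each group, and bars are group means. For all 10 genes the TAM112 points lie above the TAM111 points at 14 DAF, which the choice fixed, and at 5 DAF, which it did not use.

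At 5 DAF, 106 of the 200 members were DEGs with higher levels in TAM112 and 0 were DEGs with lower levels. Here a DEG is a gene that differed over 2-fold at an adjusted p under 0.01 in edgeR's quasi-likelihood test on all 65080 genes tested. By the same call 1.45% of all genes tested, 1.3% of the genes that met the levels and 0.915% of those that were not members were higher in TAM112 at 5 DAF. Lower in TAM112 were 1.93% of all genes tested and 0.898% of those that met the levels. The 106 members made up 30.03% of the 353 genes that met the levels and were higher at 5 DAF. DESeq2 called 119 members higher, against 2.29% of the genes that met the levels, and 0 lower. At an unadjusted p under 0.05 edgeR had 154 members higher and 3 lower, against 18.1% and 15.4% of the genes that met the levels. In a fit of the 5 DAF libraries alone, in which the spread owed nothing to the libraries of the choice, 90 of the 195 members tested were higher, against 0.691% of the genes that met the levels.

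The DEGs were more frequent at high rank. Among successive sets of 50 ranks there were 37, 29, 24 and 16. All of ranks 1 to 10 were DEGs at 5 DAF. In 143 members the 3 TAM112 libraries of 5 DAF were all above the 3 TAM111 libraries, against 16.7% of the genes that met the levels. In 3 members they were all below, against 12.7%, and in 54 members the cultivars overlapped. The log2 fold change at 5 DAF was positive in 186 members and negative in 14, against 54.2% and 45.7% of the genes that met the levels. The median was 2.1 over the members, against 0.05 over the genes that met the levels. It was over 2-fold higher in TAM112 in 135 members and over 2-fold lower in 0, against 4.5% and 2.18% of the genes that met the levels.

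The members are described next by whether they were DEGs at 5 DAF. This split uses the 5 DAF fold itself, so a large fold there among the DEGs and a smaller one among the others follow from it. For the 106 DEGs the median log2 fold change was 3.44 at 14 DAF and 3.67 at 5 DAF (1.53 to 8.05). The fold at 5 DAF was within 2-fold of the fold at 14 DAF in 63 of them, more than 2-fold larger in 25 and more than 2-fold smaller in 18. Their median levels were 14.6 CPM in TAM112 and 1.12 CPM in TAM111 at 14 DAF, and 11.97 CPM in TAM112 and 0.900 CPM in TAM111 at 5 DAF. Library by library, the median level of these genes at 5 DAF was 11.8, 12.7 and 11.7 CPM in TAM112, against 1.02, 0.741 and 0.846 CPM in TAM111.

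For the 94 other members the median log2 fold change was 3.21 at 14 DAF and 0.73 at 5 DAF (-0.95 to 7.06). Their median levels were 14.8 CPM in TAM112 and 1.51 CPM in TAM111 at 14 DAF, and 7.71 CPM in TAM112 and 4.95 CPM in TAM111 at 5 DAF. In 89 of them the fold at 5 DAF was more than 2-fold smaller than at 14 DAF. A missed call was not evidence of equal levels. Of the 94, 48 had an unadjusted p under 0.05 in the higher direction, against 18.1% of the genes that met the levels, and 29 were over 2-fold higher in TAM112, against 4.5%. TraesCS2B02G034400 had the largest fold among them and the widest relative spread of TAM112 libraries at 14 DAF over the members. It had 45.2, 14.1 and 173 CPM in TAM112 at 14 DAF, against 1.30, 1.52 and 2.39 CPM in TAM111. In the earlier grains it held 207, 135 and 18 counts in TAM112, against 2, 0 and 0 counts in TAM111, a scaled ratio of 153 (95% counting interval 42.0 to 1268) with an adjusted p of 0.018 by edgeR.

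**Figure D2:**
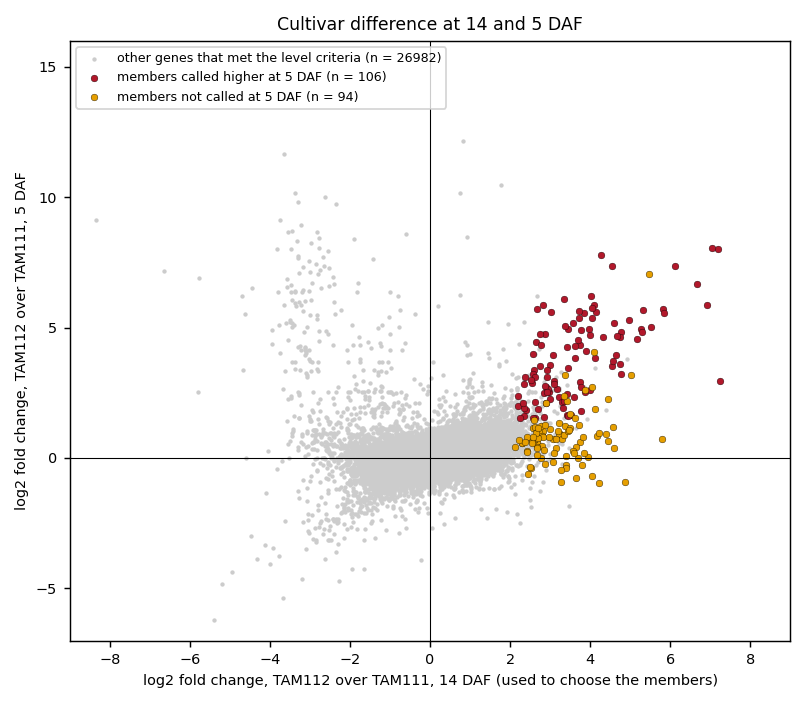
Log2 fold change of TAM112 over TAM111 at 14 DAF (x axis) and at 5 DAF (y axis). Each point is a gene, with the 106 members that were DEGs at 5 DAF in red, the 94 other members in orange and the other genes that met the levels in grey. All members lie right of 2.12 on the x axis because they were chosen there, and 186 of them lie above 0 on the y axis.

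The largest differences at 5 DAF among the DEGs were in TraesCS7B02G038300, TraesCS1A02G159700, TraesCS1A02G358700, TraesCS1A02G259100, TraesCS2B02G238200 and TraesCS6D02G040500. TraesCS1A02G358700 (chromosome 1A, 540401119 to 540402130, minus strand) was nearly absent from TAM111 at 5 DAF. At 14 DAF it had 7.93, 9.92 and 6.99 CPM in TAM112, against 0.597, 0.217 and 0.456 CPM in TAM111, where every library held some counts. It held 138, 129 and 80 counts in TAM112 at 5 DAF, against 0, 1 and 0 counts in TAM111. The scaled ratio was 295, with a 95% counting interval of 52.6 to 11683 that reflects the single TAM111 count. TraesCS1A02G259100 (chromosome 1A, 452051195 to 452052750, plus strand) followed the same course. At 14 DAF it had 16.1, 22.5 and 10.7 CPM in TAM112, against 0.667, 0.834 and 0.597 CPM in TAM111. It held 337, 434 and 445 counts in TAM112 at 5 DAF, against 0, 0 and 6 counts in TAM111.

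TraesCS2B02G238200 (chromosome 2B, 239506938 to 239509410, plus strand, 10 exon blocks) had all 6 TAM112 libraries above 48 CPM and all 6 TAM111 libraries below 0.9 CPM. It had 62.7, 67.03 and 48.7 CPM in TAM112 at 14 DAF, against 0.877, 0.834 and 0.842 CPM in TAM111. At 5 DAF it had 48.2, 52.1 and 61.0 CPM in TAM112, against 0.369, 0.178 and 0.423 CPM in TAM111, and its log2 fold change was 7.36 ± 0.28 (SE) with an adjusted p of 5.4e-08 by edgeR. TraesCS6D02G040500 (chromosome 6D, 16510678 to 16511506, plus strand) was uneven in TAM112 at 5 DAF. It had 57.8, 52.8 and 64.3 CPM in TAM112 at 14 DAF, against 0.877, 0.362 and 0.456 CPM in TAM111, and 91.9, 222 and 140 CPM in TAM112 at 5 DAF, against 1.26, 1.54 and 1.64 CPM in TAM111. In both cultivars its level was lower at 14 DAF than at 5 DAF, by the same log2 fold change of -1.38.

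In every TAM111 library at 5 DAF, 4 members were at 3 counts or fewer, against 189 of the 27182 genes that met the levels. These members were TraesCS7B02G038300, TraesCS1A02G358700, TraesCS2B02G034400 and TraesCS1B02G107700. Without counts in all 3 of these libraries were 0 members, against 103 of the genes that met the levels. The rule asked for over 3 counts in each TAM111 library at 14 DAF, so a gene without counts there could not be a member. Whether low TAM111 counts came from reads of near-identical copies was not tested.

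Between the stages the members divided by which cultivar was at a different level at 14 DAF than at 5 DAF. These comparisons share the 14 DAF libraries with the choice of the members and the 5 DAF libraries with the split into DEGs and others, and are given as counts, without a test. Taking a 2-fold difference as the limit, 42 of the 106 DEGs at 5 DAF were within 2-fold between the stages in both cultivars, against 66.3% of the genes that met the levels. Another 22 were within 2-fold in TAM112 and higher at 14 DAF in TAM111, against 4.91% of the genes that met the levels. In both cultivars 13 were higher at 14 DAF, against 9.49%, and in TAM112 alone 11 were, against 4.95%. The remaining 18 were lower at 14 DAF in at least 1 cultivar. In TAM111 alone 7 were, against 5.87%, in TAM112 alone 5, against 3.76%, and in both 6, against 4.51%.

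Of the 94 other members, 58 were over 2-fold lower at 14 DAF than at 5 DAF in TAM111, against 10.5% of the genes that met the levels. In TAM112, 40 of the 94 were over 2-fold higher at 14 DAF than at 5 DAF, against 14.5%. The most frequent course was a level within 2-fold in TAM112 and a lower level at 14 DAF in TAM111, in 39 members. It was followed by a higher level at 14 DAF in TAM112 alone in 19, a higher level in both in 13, a lower level in both in 11, a higher level in TAM112 with a lower one in TAM111 in 8, and no 2-fold difference in either in 4. Over the genes that met the levels these courses held, in the same order, 5.87%, 4.95%, 9.49%, 4.51%, 0.0920% and 66.3%. The course of those 8 members is called opposed below. With library totals as the scale the same courses held 41, 18, 12, 9, 13 and 1 members.

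**Figure D3:**
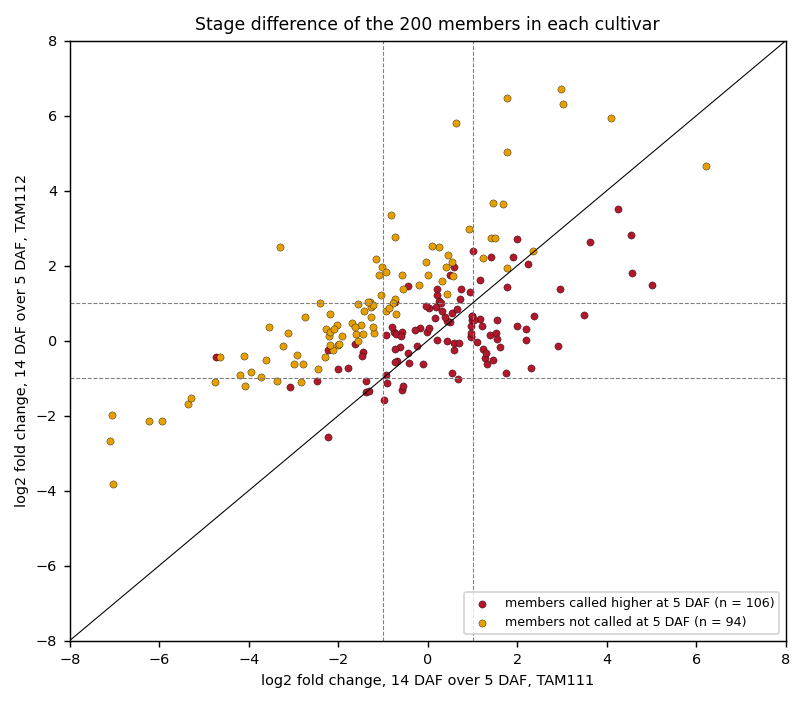
Log2 fold change of 14 DAF over 5 DAF in TAM112 (y axis) and in TAM111 (x axis) for the 200 members. Dashed lines mark 2-fold differences and the solid line equal change. The distance above the solid line is the cultivar fold at 14 DAF minus that at 5 DAF, so the choice and the split by the 5 DAF call set where the DEGs at 5 DAF (red) and the other members (orange) lie relative to it. Of the orange points, 58 lie left of the dashed line at -1 for TAM111.

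The examples of these courses are among the members of highest rank in each and were picked after their values were seen. TraesCS7A02G339400 (chromosome 7A, 497276479 to 497279984, minus strand) kept its level in TAM112 and was lower at 14 DAF in TAM111. It had 17.2, 15.4 and 14.3 CPM in TAM112 at 14 DAF, against 1.12, 0.544 and 0.947 CPM in TAM111. In the earlier grains it had 13.3, 15.3 and 12.2 CPM in TAM112, against 7.69, 7.67 and 7.44 CPM in TAM111. The 3 TAM111 libraries of 14 DAF were the low ones, and the other 9 lay between 7.44 and 17.2 CPM. TraesCS5D02G369800, a gene of 1 exon on chromosome 5D (445055667 to 445056143, minus strand), showed the same course from overlapping levels at 5 DAF. It had 10.2, 10.8 and 8.71 CPM in TAM112 at 14 DAF, against 0.562, 0.761 and 0.597 CPM in TAM111. The 5 DAF libraries had 5.07, 7.96 and 10.1 CPM in TAM112, against 4.09, 7.88 and 10.7 CPM in TAM111.

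TraesCS3A02G467700 ranked above both in this course, and there the 5 DAF level of TAM111 rested on 1 library. At 14 DAF it had 7.37, 6.60 and 5.62 CPM in TAM112, against 0.281, 0.362 and 0.175 CPM in TAM111. It held 148, 156 and 199 counts in TAM112 at 5 DAF, against 3, 15 and 177 counts in TAM111. Without TAM111 replicate 3 of 5 DAF, the cultivars did not overlap at either stage.

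TraesCS3B02G306600 (chromosome 3B, 492610670 to 492613336, minus strand) was lower at 14 DAF in both cultivars. It had 35.3, 44.3 and 21.3 CPM in TAM112 at 14 DAF, against 0.948, 0.580 and 0.281 CPM in TAM111. Its levels at 5 DAF were 103, 128 and 168 CPM in TAM112, against 81.1, 71.9 and 87.5 CPM in TAM111. From 5 to 14 DAF the log2 fold change was -1.98 in TAM112 and -7.05 in TAM111. TraesCS7A02G536600 shared this course, with log2 fold changes of -1.68 in TAM112 and -5.36 in TAM111. The lowest log2 fold change in TAM111 over the members was -7.1, in TraesCS2B02G501000.

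In the opposed course, TraesCS7D02G084800 (chromosome 7D, 51951886 to 51954143, minus strand) had 6.16, 9.99 and 5.79 CPM in TAM112 at 14 DAF, against 0.281, 0.217 and 0.246 CPM in TAM111. At 5 DAF the cultivars overlapped, with 0.812, 0.866 and 2.17 CPM in TAM112, against 1.51, 2.04 and 3.86 CPM in TAM111. TAM111 had the higher mean at 5 DAF, with a log2 fold change of -0.94 ± 0.43 (SE) that was not called (adjusted p 0.18, edgeR). TraesCS3B02G290300 and TraesCS3A02G217900 shared this course, with log2 fold changes of 14 DAF over 5 DAF of 1.96 and 2.17 in TAM112 and of -1.03 and -1.15 in TAM111.

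TraesCS7B02G068300 (chromosome 7B, 73311325 to 73312246, plus strand) was at 4 to 18 counts in 9 libraries and higher in TAM112 at 14 DAF. It held 271, 370 and 293 counts in TAM112 at 14 DAF, against 18, 7 and 10 counts in TAM111. The 5 DAF libraries held 4, 8 and 4 counts in TAM112, against 8, 9 and 10 counts in TAM111. Its log2 fold change of 14 DAF over 5 DAF was 5.82 in TAM112 and 0.63 in TAM111. TraesCS1B02G107700 (chromosome 1B, 119772466 to 119775042, minus strand) was higher at 14 DAF in both cultivars. It held 755, 493 and 309 counts in TAM112 at 14 DAF, against 15, 4 and 14 counts in TAM111. At 5 DAF it held 5, 16 and 3 counts in TAM112, against 0, 0 and 2 counts in TAM111.

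**Figure D4:**
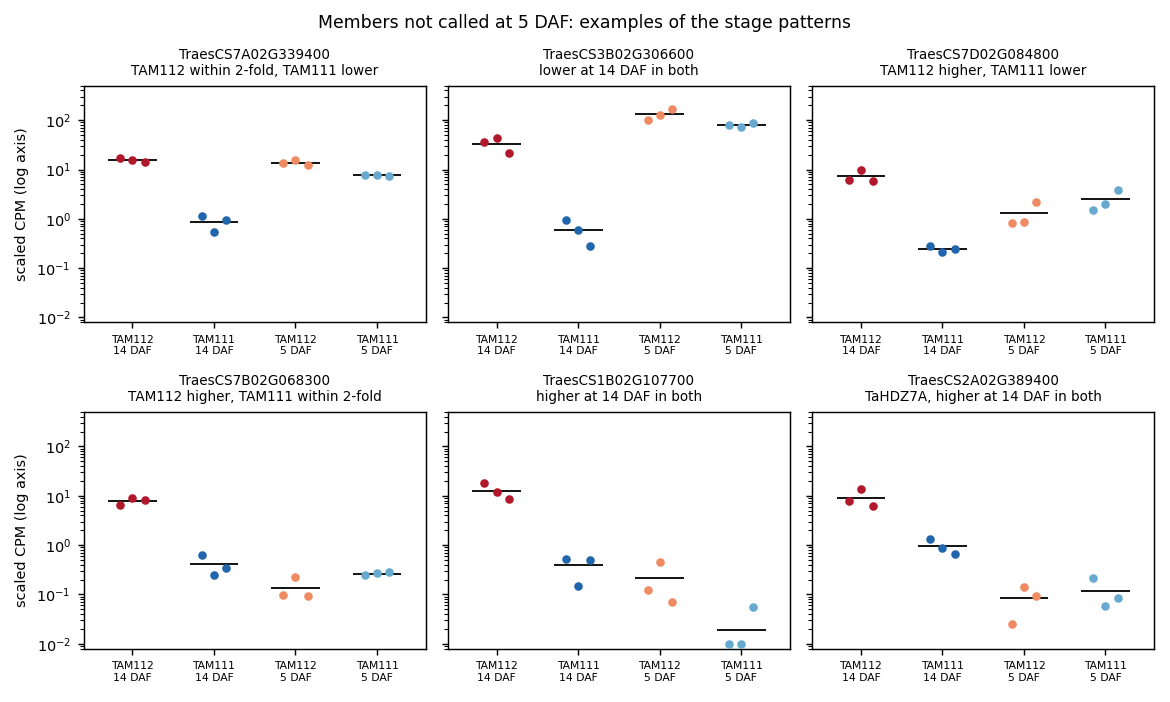
Scaled CPM (log axis) in every library of 6 members that were not DEGs at 5 DAF. Points are libraries, with replicates 1 to 3 left to right in each group, bars are group means, and values of 0 are drawn at 0.01. The gap between the cultivars at 14 DAF stands beside levels at 5 DAF that are high in both cultivars in the upper left and upper middle panels and low in both in the lower row.

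Among the members that were not DEGs at 5 DAF, replicate 3 of 5 DAF was uneven in some of the courses. Of these members, 11 were lower at 14 DAF in both cultivars. Replicate 3 was their highest library of 5 DAF for 9 in TAM112 and for 8 in TAM111. Another 13 were higher at 14 DAF in both. Replicate 3 was their lowest library of 5 DAF for 10 in TAM112 and for 6 in TAM111. The largest course, of 39 members, did not share this. There replicate 3 was the highest library of 5 DAF for 14 in TAM112 and 15 in TAM111. It was the lowest for 12 in TAM112 and 9 in TAM111. Neither the DEGs of the same courses nor the genes that met the levels were examined in this way. Same-numbered libraries of 5 DAF deviated together over all genes, with correlations of 0.365, 0.340 and 0.528 across genes for numbers 1, 2 and 3. With the number as a block, 114 members were DEGs with higher levels in TAM112, against 2.2% of the genes that met the levels, and all 106 of the reported ones were among them. At 14 DAF, TAM111 replicate 1 was the highest of its group for 11 of those 13 members that were not DEGs. The part of these library differences in the stage courses was not tested.

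TraesCS2A02G389400, named TaHDZ7A in the study, was the only one of the 34 transcription factors of the study's network tables among the members. It encodes an HD-Zip factor of subfamily I, a plant family that joins a homeodomain to a leucine zipper and is known for its part in abscisic acid and drought responses. The gene lies on chromosome 2A, 637984322 to 637985792, plus strand, with 2 exon blocks. It held 332, 568 and 221 counts in TAM112 at 14 DAF, against 38, 24 and 19 counts in TAM111. In the earlier grains it held 1, 5 and 4 counts in TAM112, against 7, 2 and 3 counts in TAM111. It was thus close to the limit of detection in both cultivars at 5 DAF and higher at 14 DAF in both. The log2 fold change of 14 DAF over 5 DAF was 6.72 in TAM112 and 2.98 in TAM111. At 5 DAF a cultivar difference was not detectable at this depth (log2 fold change -0.48 ± 0.72 SE, adjusted p 0.71, edgeR), and its sign turned to 0.21 without TAM111 replicate 1. Of the other 33 factors, 16 met the levels of the rule and were not members. The study also tabulates TaHDZ30A (TraesCS4A02G231300), TaHDZ29A (TraesCS3A02G325800) and TaHDZ29B (TraesCS3B02G354900), HD-Zip factors of subfamily IV, and none of these met the levels. At 14 DAF TaHDZ29A had 4.50 ± 6.44 CPM (SD) in TAM112, against 43.6 ± 21.7 CPM in TAM111. TaHDZ29B had 2.86 ± 4.21 CPM (SD), against 26.7 ± 12.2 CPM. Both means were thus lower in TAM112. TaHDZ30A was close to 0 in both cultivars at 14 DAF. Its levels at 5 DAF were 17.6 ± 13.4 CPM (SD) in TAM112, against 27.8 ± 8.63 CPM in TAM111. The study sorted its tables by network connections, not by level.

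By CPM, which is not corrected for gene length, the members with the highest mean in TAM112 at 14 DAF were TraesCS5D02G388700, TraesCS2D02G220900 and TraesCS2B02G489600, and those with the highest mean at 5 DAF were the first pair and TraesCS5A02G378700. TraesCS5D02G388700 (chromosome 5D, 458094426 to 458098176, minus strand) had 380, 384 and 866 CPM in TAM112 at 14 DAF, against 26.1, 87.4 and 41.9 CPM in TAM111. At 5 DAF it had 1134, 1569 and 1969 CPM in TAM112, against 1891, 1451 and 2708 CPM in TAM111. TraesCS5A02G378700 (chromosome 5A, 575705509 to 575709396, minus strand) had 155, 165 and 496 CPM in TAM112 at 14 DAF, against 8.49, 17.1 and 12.002 CPM in TAM111. In both genes replicate 3 was the high TAM112 library at 14 DAF, all 6 libraries of 5 DAF were above every library of 14 DAF, and the cultivars were not DEGs at 5 DAF (adjusted p 0.64 and 0.37, edgeR). The log2 fold change of 14 DAF over 5 DAF of TraesCS5A02G378700 was -2.13 in TAM112 and -5.93 in TAM111.

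TraesCS2D02G220900 (chromosome 2D, 188502288 to 188505394, minus strand) had 468, 402 and 733 CPM in TAM112 at 14 DAF, against 31.3, 100 and 86.3 CPM in TAM111. At 5 DAF the cultivars were close, with a log2 fold change of -0.24 ± 0.39 (SE) and an adjusted p of 0.73 by edgeR. TraesCS2B02G489600 (chromosome 2B, 686834230 to 686838629, minus strand) differed from these in being a DEG at 5 DAF. It had 435, 533 and 407 CPM in TAM112 at 14 DAF, against 45.9, 65.2 and 66.2 CPM in TAM111. In the earlier grains it had 291, 468 and 326 CPM in TAM112, against 65.2, 62.2 and 46.0 CPM in TAM111, with a log2 fold change of 2.64 ± 0.25 (SE) and an adjusted p of 2.7e-05 by edgeR. In TPM, which corrects for gene length, its mean at 14 DAF was 331.7 in TAM112 and 25.8 in TAM111. That of TraesCS2D02G220900 was 401.7 in TAM112 and 32.9 in TAM111. These TPM were not scaled by TMM, so their cultivar gaps are not comparable with those in CPM. Over the genes that met the levels the median at 14 DAF was 12.3 TPM in TAM112 and 7.19 TPM in TAM111. In scaled CPM it was 13.7 in TAM112 and 13.4 in TAM111. Over all members the highest of the 4 group means was TAM112 at 14 DAF in 130 genes, TAM112 at 5 DAF in 63 and TAM111 at 5 DAF in 7. Of the 27182 genes that met the levels these were 8586, 5517 and 6877, and TAM111 at 14 DAF was highest in 6202. The rule set TAM112 above TAM111 at 14 DAF, so TAM111 at 14 DAF could not be highest in a member.

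The spread between replicates was given by the coefficient of variation. Its median over the members was 15.97% in TAM112 and 25.02% in TAM111 at 14 DAF, and 25.7% in TAM112 and 34.7% in TAM111 at 5 DAF. Over the genes that met the levels it was 11.9% in TAM112 and 11.9% in TAM111 at 14 DAF, and 16.7% in TAM112 and 18.1% in TAM111 at 5 DAF. The low TAM111 levels of the members carry more counting error, and the part of this in the spread was not tested. The pair TraesCS5D02G275400 and TraesCS5D02G275500, which overlap on the same strand of chromosome 5D, was uneven across libraries. TraesCS5D02G275400 held 501, 1270 and 591 counts in TAM112 at 14 DAF, against 85, 9 and 33 counts in TAM111, and TraesCS5D02G275500 held 270, 646 and 393 counts in TAM112, against 41, 4 and 18 counts in TAM111. The libraries stood in the same order in both genes, and their reads may not be separable. Another 5 members overlap a different feature, TraesCS2A02G216800 on the same strand and TraesCS1D02G245900, TraesCS5D02G531400, TraesCS2B02G137700 and TraesCS4D02G072800 on the opposite one, and their counts are uncertain to that extent.

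The members were spread over all 21 chromosomes, with the largest share on subgenome B. The B subgenome held 86 of the 200 members (43.0%, against 32.9% of the genes that met the levels), A held 58 (29.0%, against 32.6%), D held 53 (26.5%, against 33.6%) and 3 were unplaced. Chromosome 2B held the most, 20, followed by 3B with 15, and 4A and 4D the fewest, 3 each. The members of 6B were DEGs at 5 DAF in 10 of 11 cases, those of 1A in 9 of 10 and those of 2B in 14 of 20. On 5D 0 of 9 were, on 7D 3 of 12 and on 3B 4 of 15. These counts are small and are given as a description. The share of DEGs among all genes tested on the same chromosomes is not given here, so the counts cannot be set against it.

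**Figure D5:**
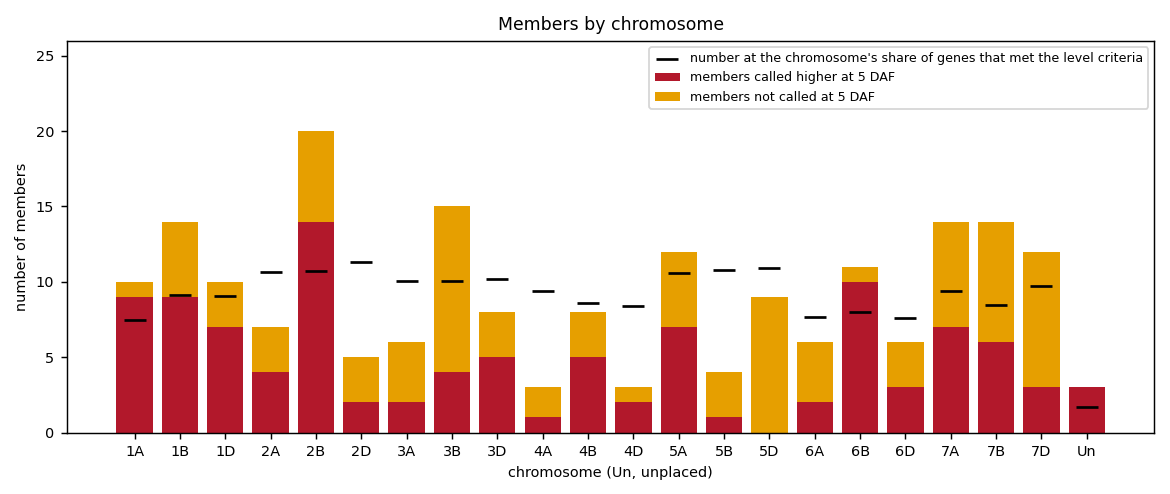
Number of members on each chromosome, split into DEGs at 5 DAF (red) and other members (orange). Black marks give the number each chromosome would hold at its share of the 27182 genes that met the levels. Chromosome 2B holds 20 members, and the 9 members of 5D are all orange.

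Most members stood alone, and 28 lay in 12 groups with less than 1 Mb between neighbours. The same count was not made for the genes that met the levels, so the part of gene density in it is not known. The largest group, of 4, was on 2B between 16813613 and 17391444 and included TraesCS2B02G034200, TraesCS2B02G034300, TraesCS2B02G034400 and TraesCS2B02G036600. Of these, 3 were DEGs at 5 DAF, and TraesCS2B02G034300 had a log2 fold change there of 1.61 and TraesCS2B02G036600 of 2.51. On 6D, TraesCS6D02G040400 and TraesCS6D02G040500 are neighbours on the plus strand. TraesCS6D02G040400 had 46.6, 35.8 and 40.3 CPM in TAM112 at 14 DAF, against 3.19, 3.66 and 3.12 CPM in TAM111. The 5 DAF libraries had 62.4, 130 and 74.6 CPM in TAM112, against 4.09, 6.31 and 8.49 CPM in TAM111. In both genes replicate 2 was the highest TAM112 library at 5 DAF.

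The neighbours TraesCS7A02G118800 and TraesCS7A02G118900 on 7A were both DEGs at 5 DAF. TraesCS7A02G118800 had 69.5, 78.0 and 63.4 CPM in TAM112 at 14 DAF, against 1.90, 1.70 and 1.86 CPM in TAM111. TraesCS7A02G118900 had 45.1, 44.5 and 42.0 CPM in TAM112 at 14 DAF, against 3.97, 3.88 and 3.58 CPM in TAM111. Their log2 fold changes at 5 DAF were 4.95 and 1.64. The neighbours TraesCS7D02G114100 and TraesCS7D02G114200 on 7D, at 69815233 to 69823208 and 69867607 to 69875984 on the minus strand, have 13 exon blocks each. Their log2 fold changes at 5 DAF were 1.54 (adjusted p 0.0055, edgeR) and 0.92 (adjusted p 0.051, edgeR).

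The 10 Mb with the most members, on 2B between 680 and 690 Mb, held 6 members among 23 genes that met the levels. They included TraesCS2B02G489600 and TraesCS2B02G489800, and TraesCS2B02G489800 had 55.8, 99.7 and 74.8 CPM in TAM112 at 5 DAF, against 1.26, 1.27 and 2.00 CPM in TAM111. Of the 59 genes tested in that stretch, members included, 14 were higher and 1 lower in TAM112 at 5 DAF. Over all genes tested, 1.45% were higher and 1.93% lower. The stretches on 2B and 6D were taken because they held the most members, and their counts include those members. On 2B between 10 and 20 Mb, 5 of 22 genes that met the levels were members. Of the 53 genes tested there, 11 were higher and 2 lower at 5 DAF. On 6D between 10 and 20 Mb, with 3 members, 6 of the 98 genes tested were higher and 3 lower at 5 DAF. On 1A between 10 and 210 Mb there were 2 members among 92 genes that met the levels.

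The last comparison is of the tested genes next to members, within 1 Mb and not members themselves. This set was defined after the values were seen. Of 363 such genes, 6.89% were higher and 3.03% lower in TAM112 at 5 DAF, against 1.46% and 1.94% of all annotated genes tested. Beside members that were DEGs at 5 DAF, 11.2% of 187 were higher and 4.28% lower. Beside the other members only, 2.27% of 176 were higher and 1.70% lower. The median length of the members was 1843 bases against 1741.5 for the genes that met the levels, the median number of exon blocks was 5 in both, and 12.5% against 9.94% had a single block.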

How the data were processed

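The 12 libraries of developing grain were sequenced with 100-nt paired reads. Adapters and poor bases were removed by the authors with Cutadapt and Trimmomatic, HISAT2 placed the reads on the IWGSC RefSeq v1.0 assembly, and featureCounts (Subread) tallied them per gene of annotation v1.1. The authors deposited these raw counts as 1 table. How strand and multiply mapped reads were handled is not given in the sources used here, and homeologs and other near-identical copies could share reads.

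Groups and replicate numbers came from the sample labels. The members and gene lists were chosen with earlier results of these data known. The counts were fitted with edgeR 4.0.16 in R 4.3.3 (filterByExpr, TMM, 1 coefficient per group, quasi-likelihood F test, Benjamini-Hochberg adjustment over 65080 genes), with DESeq2 1.42.0 as an alternative. The standard error is the log2 fold change over the square root of F. In simulated counts with 200 genes changed 4-fold in TAM112 at 5 DAF, the fit called 66.5% of them. Of its calls, 99.3% were changed genes. The changed genes were drawn above a minimum mean count, so genes with fewer counts were not covered. The simulated libraries were independent draws around the overall mean of each gene. Stage differences and deviations shared by same-numbered libraries were therefore not covered either. Same-numbered libraries of 5 DAF deviated together (all 3 correlations over 0.1), so the number was also fitted as a block. Replicates are inflorescences, and whether they came from separate plots is not given in the sources used here, so p-values measure the spread between these samples. Counting intervals and the floor of 3 counts take in counting error alone, as PCR copies could not be recognised without molecular identifiers.

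Named genes were the 10 of highest rank, the 6 DEGs with the largest differences in each direction at 5 DAF, the 3 of highest mean CPM in TAM112 at 14 DAF and at 5 DAF, members named in the study, and the genes at the threshold. The examples of stage courses, chromosomal groups and library differences were chosen after their values were seen. Lists by gene description and cell type, and promoter sequences, could not be applied to these identifiers and are not analysed here. Alternatives were other scalings, filters, thresholds and tools, the 5 DAF libraries alone, the block, each library left out, and other forms of the rule. All columns of the table were used.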

Additional observations from a re-analysis of the deposited data

Results flagged for a closer look

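In 3 members every TAM112 library lay below every TAM111 library at 5 DAF, and above every TAM111 library at 14 DAF as the rule required. The log2 fold changes at 5 DAF were -0.95 for TraesCS7B02G068300, -0.90 for TraesCS7D02G401000 and -0.77 for TraesCS2B02G501000, and none of these was a DEG (adjusted p 0.19, 0.10 and 0.31, edgeR). TraesCS7D02G401000 had 14.0, 15.6 and 12.6 CPM in TAM112 at 14 DAF, against 1.65, 1.88 and 0.807 CPM in TAM111. At 5 DAF it had 0.960, 1.12 and 2.03 CPM in TAM112, against 2.37, 3.08 and 2.28 CPM in TAM111. TraesCS2B02G501000, a gene of 1 exon on chromosome 2B (696080847 to 696081190, minus strand), had 49.9, 75.0 and 173 CPM in TAM112 at 14 DAF, against 3.97, 12.03 and 7.86 CPM in TAM111. At 5 DAF it had 453, 682 and 781 CPM in TAM112, against 786, 1233 and 1254 CPM in TAM111. The difference between the stages was not tested, since the rule fixed the direction at 14 DAF. Over the genes that met the levels, the TAM112 libraries were all below the TAM111 libraries at 5 DAF in 12.7%.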

How the results depend on the processing

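The number of members higher in TAM112 at 5 DAF was 105 with DESeq2 size factors or upper-quartile factors in edgeR, 110 with library sizes alone, 119 by DESeq2, 88 with a test against the 2-fold threshold, 108 without the filter on low counts, 118 at an adjusted p under 0.05, 90 in the 5 DAF libraries alone, 114 with the replicate block, 106 with the block in the 5 DAF libraries alone, and 97 to 106 with 1 library left out. The number lower was 0 in each of these. With at least 10 counts in every library it was 66, where only 135 members were tested and all 66 of the reported calls among them were kept. With each of the 12 libraries left out in turn, 94 of the 106 were called every time. The block over all 12 libraries changed no named call. TraesCS7A02G031900 lost its call in 16 settings (log2 fold change 1.32 to 1.70), among them the 5 DAF libraries alone, with and without the block. The log2 fold change of TraesCS2A02G389400 ran between -0.95 and 0.21 with 1 library left out, and its sign reversed only without TAM111 replicate 1 of 5 DAF. The rule took 133 of the 200 members with a minimum of 1 CPM, 121 with 10 CPM, and 113 to 192 with 1 library of 14 DAF left out, the lowest without TAM112 replicate 3. It took 182 with TMM scaling, 194 without the 20 most abundant genes and 149 with means in place of extremes. Of the 200 genes taken without TAM112 replicate 3, 82 were higher in TAM112 at 5 DAF and 0 lower. With a minimum of 1 CPM the 200 genes held 110 higher and 1 lower, and with 10 CPM 82 higher and 1 lower. At 5 DAF the low TAM111 levels limit the precision of single folds, as the counting intervals show.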
